A study of Mus musculus with 12 samples.

Results

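The 9 genes described here, Chek1, Chek2, Atm, Atr, Wee1, Clspn, Brca1, Brca2 and H2afx, belong to the replication checkpoint and to the signalling and repair of DNA breaks. They were taken by gene symbol from the platform annotation of Illumina MouseWG-6 v2 BeadChips, which gave 23 of the 45281 probes in the table and 9 of the 19057 genes that these probes name. H2afx is listed there and in RefSeq under its newer symbol H2ax. Chek1 was chosen by its KO against WT difference, which had one of the smallest p-values on these arrays, and the others were taken with it as genes of the same pathway. The Chek1 values in that comparison are therefore a description, with no test.

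RNA of the whole testis of mice aged 10 days was measured on 12 arrays. The KO group (labelled SC-RbKO, 4 arrays, KO 1 to KO 4) had, by its label, Rb deleted on both alleles, and the HET group (labelled SC-Rb+/-, 3 arrays, HET 5 to HET 7) on one allele, in Sertoli cells, the somatic cells that nurse germ cells. The WT group (labelled Wild Type) had 5 arrays, WT 8 to WT 12. Deletion used a Cre recombinase transgene driven by the AMH promoter together with floxed Rb alleles, so that Rb in germ cells and in other somatic cells was not targeted. The labels call the controls wild type and do not say whether they carried Cre or a floxed allele, and no label says that the arrays of a group came from different animals or litters. The p-values below thus measure the spread between these samples, which may be technical.

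In this pathway, stalled replication forks and resected breaks expose single-stranded DNA, on which the kinase ATR is activated. ATR, helped by the mediator Claspin (Clspn), phosphorylates CHK1 (Chek1), which holds back CDC25 phosphatases and so works with the kinase WEE1 to delay mitosis. Double-strand breaks activate ATM, which phosphorylates CHK2 (Chek2) and the histone variant H2AX (H2afx), while BRCA1 and BRCA2 lead breaks into repair by homologous recombination. The retinoblastoma protein restrains E2F transcription factors, whose known targets include replication and checkpoint genes. In the testis the same proteins act on the programmed breaks of meiosis, and H2AX phosphorylation marks the sex chromosomes of spermatocytes.

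All levels are log2 normalized intensities, and differences are on the same scale. A probe was called detected on an array at a detection p under 0.05, and probes detected on at least 3 arrays were tested, which left 20170. Single arrays detected 39.3 to 43.7 percent of probes, at median raw intensities of 52.2 to 60.2. Of 20 Sertoli cell marker genes on the array, 17 were detected on every array and Kitl, Tsx and Dmrt1 on 1, 2 and 0 arrays. Their mean relative to WT lay between -0.06 and 0.01 in KO arrays, between -0.15 and 0.04 in HET arrays and between -0.13 and 0.13 in WT arrays. Rb1 itself, read by its brighter probe, averaged 8.82 ± 0.30 in KO (n = 4), 9.04 ± 0.22 in HET (n = 3) and 9.07 ± 0.19 in WT (n = 5, SD), with overlapping groups. KO 1 read 9.26, within the WT range of 8.83 to 9.31, and the other KO arrays read 8.61 to 8.74. The KO minus WT difference was -0.26 (SE 0.15, limma adjusted p = 1), and -0.41 without KO 1. Since other cells of the testis keep the gene, and the place of the probe relative to the deleted part was not analysed here, these levels do not check the labels. These bulk values cannot tell fewer cells of a type from less RNA per cell.

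Arrays WT 12, HET 7 and HET 6 stood apart in transcripts of meiotic prophase, the stage that spermatocytes first enter at about this age. The mean of 17 measured meiotic genes relative to WT was 0.71 for HET 7 and -1.04 for HET 6, 0.68 for WT 12, and between -0.30 and 0.08 in the other 9 arrays. The list names 28 genes, 27 of them on the array. Sycp1, Sycp3, Dmc1, Hormad1, Syce2, Tex12, Tex15, Trip13 and Mael were detected on 0 arrays, and Mei4 on 1. Ldhc, a glycolytic enzyme made by male germ cells, read 11.51 for HET 7, 5.25 for HET 6 and 10.55 for WT 12, against 6.35 to 8.10 elsewhere. With all 3 left out, HET is represented by HET 5 alone.

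The promoters of the members are shown because the retinoblastoma protein acts through E2F factors. RefSeq (GRCm38.p6) gave 7 of the 9 members a stretch from 250 bases before to 50 bases after the start site, and Wee1 and H2afx were not among the matches. The letters TTTCGCGC, TTTGGCGC and TTTCCCGC, which are forms of the E2F motif, were searched on both strands. At least one of them stood in 3 of 7 member promoters, against 1.84 percent of all 32851 promoters. A further form, GGCGGGAA, was looked for after the sequences had been seen, and it stood in Chek1 and in 2.19 percent of all promoters. CCAAT, the letters of the CCAAT box, stood in 4 of 7 member promoters and in 37.4 percent of all. TTTGAA, a core of the cell cycle homology region found in genes of late cell cycle, stood in 0 of 7 and in 17.9 percent of all. The 4 promoters with an E2F form follow, each 5′ to 3′ along its gene, with E2F forms and CCAAT boxes in capitals (on the opposite strand the latter read ATTGG). They lie at chr9:36726609-36726908 on the minus strand for Chek1, and on the plus strand at chr5:110839733-110840032 for Chek2, chr4:126556730-126557029 for Clspn and chr5:150522371-150522670 for Brca2.
Chek1: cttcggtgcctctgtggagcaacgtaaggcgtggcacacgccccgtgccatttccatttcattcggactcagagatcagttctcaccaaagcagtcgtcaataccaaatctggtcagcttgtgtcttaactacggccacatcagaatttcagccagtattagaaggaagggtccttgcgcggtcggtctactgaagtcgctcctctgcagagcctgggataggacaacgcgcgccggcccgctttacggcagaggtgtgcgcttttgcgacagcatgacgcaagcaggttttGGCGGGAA
Chek2: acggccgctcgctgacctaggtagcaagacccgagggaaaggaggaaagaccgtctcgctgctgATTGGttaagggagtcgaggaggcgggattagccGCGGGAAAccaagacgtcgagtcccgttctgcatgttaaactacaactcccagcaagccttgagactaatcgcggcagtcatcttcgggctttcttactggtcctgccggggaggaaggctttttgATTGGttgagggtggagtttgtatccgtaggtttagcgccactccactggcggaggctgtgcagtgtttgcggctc
Clspn: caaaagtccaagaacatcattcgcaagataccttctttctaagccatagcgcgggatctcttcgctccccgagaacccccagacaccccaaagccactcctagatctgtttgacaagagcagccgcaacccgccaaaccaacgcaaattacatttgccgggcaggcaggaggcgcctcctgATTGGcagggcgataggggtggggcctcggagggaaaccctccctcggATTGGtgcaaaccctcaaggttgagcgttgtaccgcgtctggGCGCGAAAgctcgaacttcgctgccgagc
Brca2: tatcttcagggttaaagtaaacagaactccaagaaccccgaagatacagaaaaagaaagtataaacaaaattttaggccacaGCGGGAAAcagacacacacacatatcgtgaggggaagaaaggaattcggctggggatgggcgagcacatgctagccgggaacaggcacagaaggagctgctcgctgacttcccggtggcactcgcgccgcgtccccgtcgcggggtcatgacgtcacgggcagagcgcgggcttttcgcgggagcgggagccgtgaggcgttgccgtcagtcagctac

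The E2F form began 22 bases after the start site in Clspn, and at positions -152 in Chek2 and -168 in Brca2. In Chek1 the form looked for after the sequences had been seen began 43 bases after the start site. Chek2 held CCAAT boxes at -186 and -26, and Clspn at -69 and -21. Atm held a CCAAT box at -165 and Brca1 at -86, while the window of Atr held none of the letters searched. These matches describe letters in a window, and no binding was measured here.

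**Figure D1:**
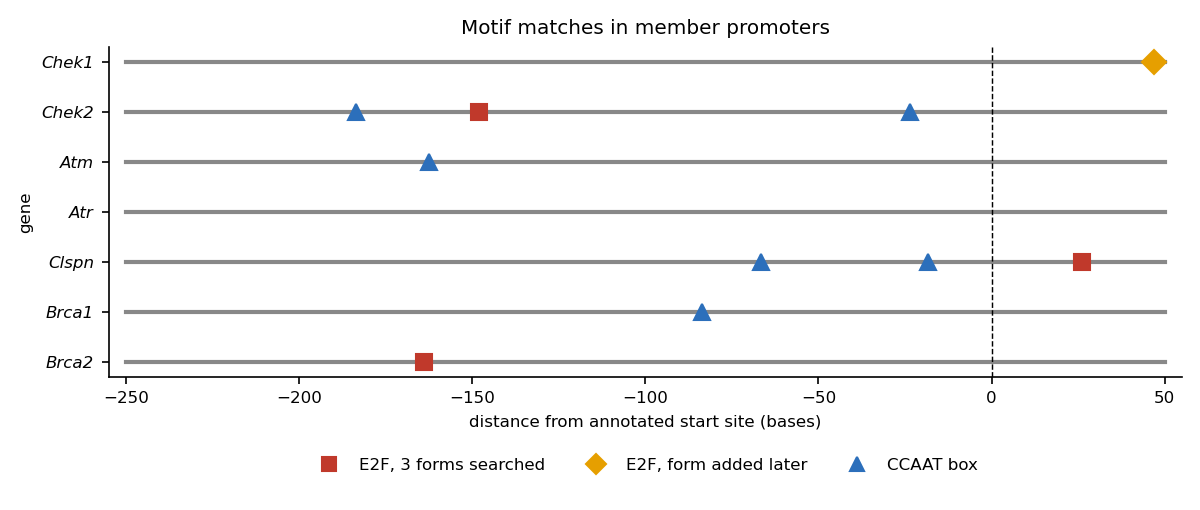
Positions of the searched motifs in the promoters of the 7 members found in RefSeq, in bases from the start site, each line being one promoter from 250 bases before to 50 bases after it. Clspn has an E2F form after the start site, Chek2 and Brca2 have one at -152 and -168, and Atr has no mark. The mark of Chek1, also after the start site, is the form looked for after the sequences had been seen.

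Of the 23 member probes, 14 were detected on enough arrays to be tested, and they cover 7 genes. Wee1 was detected on 0 of 12 arrays by both of its probes, and its brighter probe averaged 4.68 in KO, 4.53 in HET and 4.60 in WT. Brca1 has 2 probes, of which the brighter was detected on 2 of 12 arrays, at 5.42 in HET 7 and 5.06 in WT 8. Both genes were thus near the background of the array and were not tested. The remaining 5 untested probes are those that read dimmest for Chek1, Chek2, Atm and Brca2, 2 of them for Chek1.

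The threshold was a Benjamini-Hochberg adjusted p under 0.05. In KO against WT, leaving Chek1 aside, 0 of 13 probes passed (limma, adjusted p = 1 for each) and 0 had an unadjusted p under 0.05, where 0 percent of all 20170 probes passed, 1.42 percent were higher at an unadjusted p under 0.05 and 0.982 percent were lower. Of these 13, 8 had a difference above 0, and their median was 0.01, beside 50.8 percent above 0 and a median of 0.00 over all probes. In HET against WT 0 of 14 passed and 0 had an unadjusted p under 0.05, with 0 percent passed, 4.61 percent higher and 5.85 percent lower over all probes, and 8 of 14 lay above 0 with a median of 0.03. In KO against HET 0 of 14 passed and 1 probe, of Chek2, was lower at an unadjusted p under 0.05, against 0 percent, 4.46 percent higher and 3.05 percent lower, and 7 of 14 lay above 0. Without HET 5, 167 probes passed in HET against WT and 55 in KO against HET, none of them a member. KO and HET were compared with the same WT arrays, so these comparisons are not independent. In no comparison did any member probe separate the groups without overlap, which over all probes 1.09 percent did upward and 0.749 percent downward in KO against WT, 1.13 and 1.73 percent in HET against WT, and 3.11 and 2.46 percent in KO against HET.

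**Figure D2:**
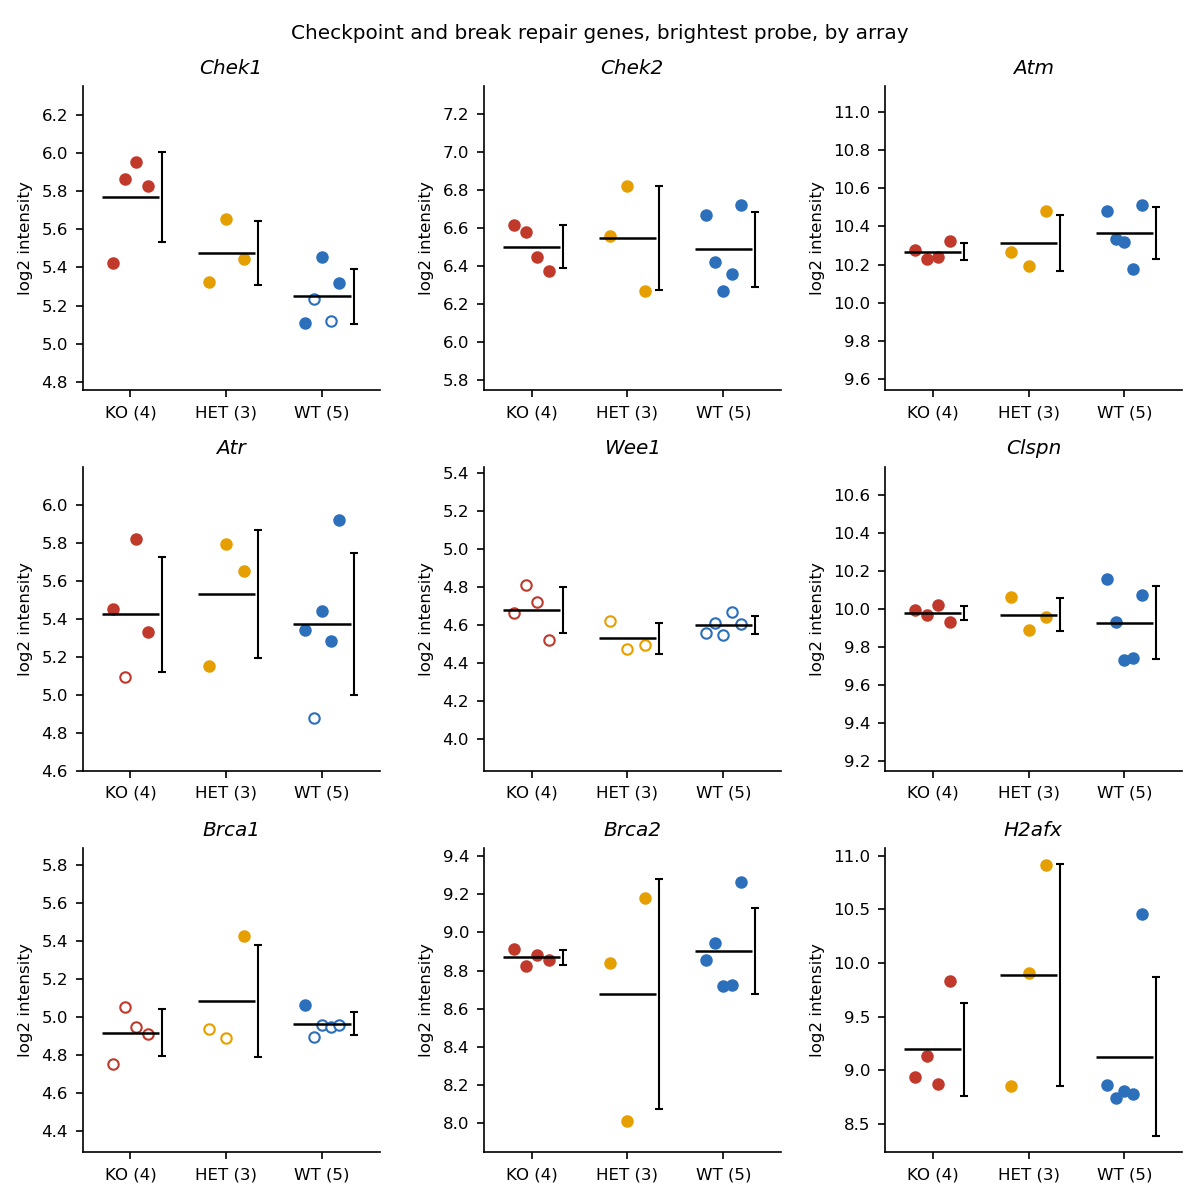
Log2 normalized intensity of the brightest probe of each of the 9 genes on every array, by group (KO, HET, WT, number of arrays in brackets), with the mean as a horizontal line and the SD as a bar, and hollow points where the probe was not detected. Chek1 is highest in 3 of the 4 KO arrays, Wee1 is hollow on every array, and H2afx reaches 10.91 in HET 7 and 10.45 in WT 12.

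Among the kinases that sense damage, Atm was bright and nearly level. Its brightest probe read 10.28, 10.23, 10.24 and 10.32 in KO 1 to KO 4, 10.27, 10.19 and 10.48 in HET 5 to HET 7, and 10.48, 10.33, 10.32, 10.18 and 10.51 in WT 8 to WT 12. The 4 KO arrays stayed close together and inside the range of WT. The difference was -0.10 in KO against WT (SE 0.09, 95% CI -0.30 to 0.10, limma adjusted p = 1) and -0.05 in HET against WT (SE 0.10, adjusted p = 0.86). A second Atm probe gave 9.68, 9.61, 9.67 and 9.69 in KO, 9.59, 9.75 and 9.77 in HET, and 9.62, 9.59, 9.63, 9.46 and 9.67 in WT. Here KO 1 and KO 4 exceeded all WT arrays by a small margin, and KO 3 read 9.67, as did WT 12. The KO minus WT difference was 0.07 (SE 0.08, limma adjusted p = 1), opposite in sign to that of the brightest probe. Without WT 12, HET 6 and HET 7 the KO minus WT differences of these probes were -0.06 and 0.09. The third probe differed by 0.01 in KO against WT (SE 0.11) and had its highest value, 7.95, in KO 2. Across the 12 arrays the 3 probes did not follow one another, with Pearson r of 0.35, -0.37 and 0.00 between pairs, a description over probes that share the same RNA.

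Atr, the kinase activated at stalled forks, was dim. Its only probe read 5.45, 5.10, 5.82 and 5.33 in KO, 5.15, 5.79 and 5.65 in HET, and 5.34, 4.88, 5.44, 5.28 and 5.92 in WT, and it was not detected in KO 2 and WT 9. The groups overlapped over nearly their whole ranges. The difference was 0.05 in KO against WT (SE 0.20, 95% CI -0.38 to 0.49, limma adjusted p = 1) and 0.16 in HET against WT (SE 0.22, adjusted p = 0.78). The KO minus WT difference was -0.08 without KO 3. Leaving out WT 12, HET 6 and HET 7 gave 0.19 in KO against WT and -0.08 in HET against WT.

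Clspn, whose protein brings CHK1 to ATR, was level across the groups. The brightest of its 4 probes read 9.99, 9.97, 10.02 and 9.94 in KO, 10.06, 9.89 and 9.96 in HET, and 10.16, 9.93, 9.73, 9.74 and 10.07 in WT. KO arrays again fell inside the range of WT, with an SD of 0.04 in KO and 0.19 in WT. The difference was 0.05 in KO against WT (SE 0.10, 95% CI -0.17 to 0.27, limma adjusted p = 1), 0.04 in HET against WT (SE 0.11, adjusted p = 0.89) and 0.01 in KO against HET. The second probe moved with the first across arrays (r = 0.82, n = 12) and differed by 0.01 in both comparisons with WT. With WT 12, HET 6 and HET 7 left out, the brightest probe differed by 0.09 in KO and by 0.17 in HET against WT, and by -0.08 in KO against HET. Another was uneven within HET, at 7.01 in HET 6 and 8.40 in HET 7, and read 7.43 in WT 12.

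Chek1, the effector kinase downstream of ATR, read 5.42, 5.87, 5.96 and 5.83 in KO 1 to KO 4, 5.32, 5.66 and 5.45 in HET, and 5.11, 5.24, 5.46, 5.12 and 5.32 in WT 8 to WT 12. KO 2, KO 3 and KO 4 lay above every WT array, while KO 1 fell below WT 10. Before normalization the probe's intensity was 74.1, 88.6, 100.5 and 80.1 in KO, 70.4, 84.5 and 71.3 in HET, and 67.7, 72.5, 77.1, 67.4 and 65.5 in WT, close to the background of the array. It was detected on 4 of 4 KO arrays, 3 of 3 HET arrays and 3 of 5 WT arrays, with WT 9 and WT 11 not detected. WT 8 was called detected yet read lower than both, so the WT values as a whole lie near the background. The other 2 Chek1 probes were detected on 0 of 12 arrays, so that the level rests on 1 probe.

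Mean Chek1 was 5.77 ± 0.24 in KO (n = 4), 5.48 ± 0.17 in HET (n = 3) and 5.25 ± 0.15 in WT (n = 5, SD). The KO minus WT difference of 0.52 (SE 0.12) is the one that chose the gene. It was 0.30 with a normexp offset of 50 in place of 16, 0.32 both without background correction and in the authors' processed values, and 0.64 without KO 1. The authors' values repeat the setting without background correction, so their equal result is not a separate check. Each array's column carries a number whose meaning the files do not give, and these numbers were split at their middle into 2 sets of 6 arrays. The difference was 0.47 in the lower set (2 arrays each) and 0.59 in the upper set (2 KO and 3 WT arrays). Both are parts of the values that chose the gene, so their likeness is no separate check. The mean of HET stood between the others. Its difference from WT was 0.23 (SE 0.13, 95% CI -0.06 to 0.52, limma adjusted p = 0.51), and it shares the WT arrays used in the choice of the gene. The KO minus HET difference was 0.29 (SE 0.14, 95% CI -0.01 to 0.59, adjusted p = 0.62) and uses the same KO arrays. When WT 12, HET 6 and HET 7 were left out, these were 0.09 and 0.45, against 0.54 in KO against WT. HET minus WT was 0.14 without HET 6.

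Chek2, the effector of ATM, gave no such pattern. Its brighter probe read 6.61, 6.58, 6.45 and 6.37 in KO, 6.55, 6.82 and 6.27 in HET, and 6.67, 6.42, 6.27, 6.36 and 6.72 in WT. The KO arrays lay inside the range of WT, and the KO minus WT difference was 0.01 (SE 0.13, 95% CI -0.26 to 0.29, limma adjusted p = 1). The second probe read 5.73, 5.89, 5.70 and 5.48 in KO, 6.18, 6.20 and 5.75 in HET, and 5.38, 5.87, 5.80, 5.94 and 5.84 in WT. HET 5 and HET 6 were above all KO and WT arrays. The KO minus HET difference was -0.34 (SE 0.16, unadjusted p = 0.047, adjusted p = 0.62) and the HET minus WT difference was 0.28 (SE 0.15, unadjusted p = 0.086, adjusted p = 0.48), neither of which passed. The brighter probe gave -0.05 and 0.06 in these comparisons. In the absence of WT 12, HET 6 and HET 7 the second probe gave -0.48 and 0.43, and the brighter probe differed by 0.07 in KO against WT.

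**Figure D3:**
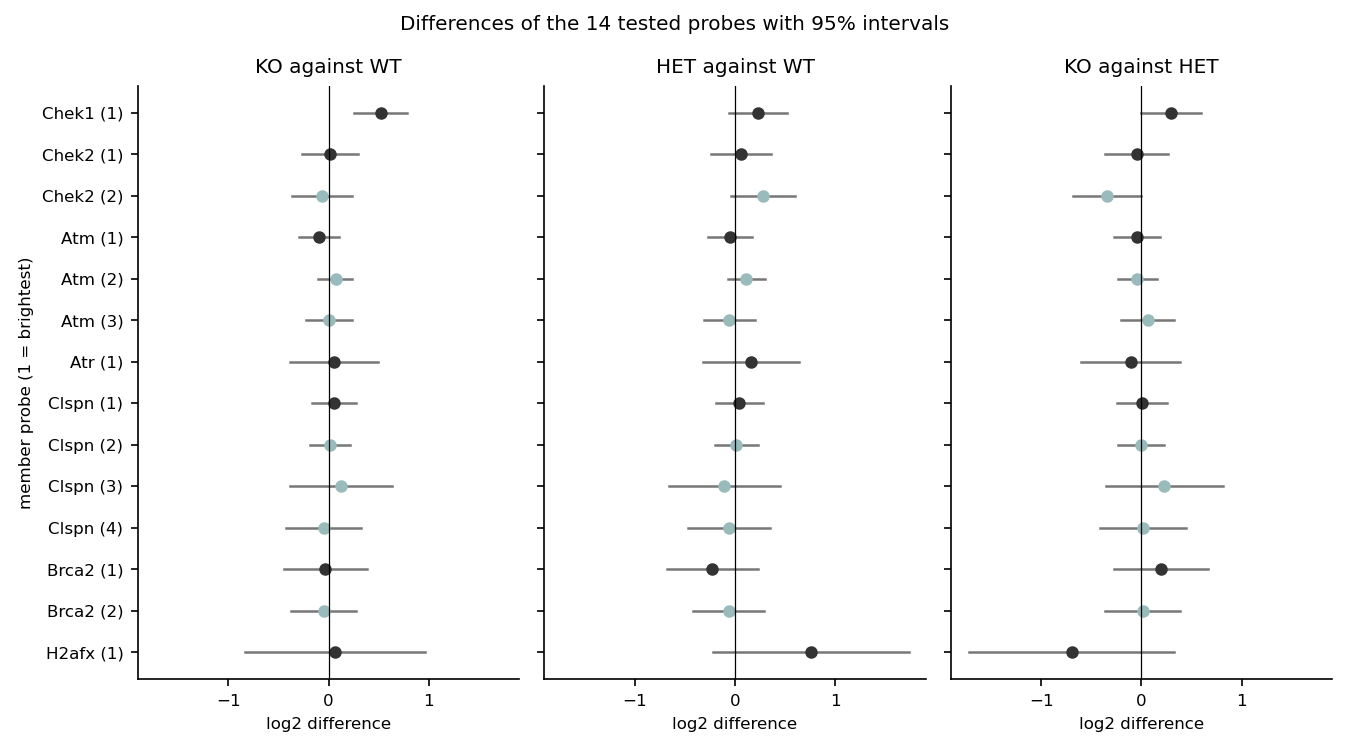
Log2 differences of the 14 tested member probes in KO against WT, HET against WT and KO against HET, as points with the 95% CI as bars. The Chek1 difference in KO against WT is 0.52, the value by which it was chosen, so its bar in that comparison is no test. The widest intervals belong to H2afx.

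H2afx, the histone whose phosphorylated form marks breaks and the sex body of spermatocytes, varied most among the members. It read 8.94, 9.13, 8.88 and 9.83 in KO, 8.85, 9.90 and 10.91 in HET, and 8.86, 8.74, 8.80, 8.78 and 10.45 in WT. The 4 highest values came from HET 7, WT 12, HET 6 and KO 4, and 4 of 5 WT arrays lay within 8.74 to 8.86. The difference was 0.07 in KO against WT (SE 0.42, 95% CI -0.83 to 0.97, limma adjusted p = 1), 0.76 in HET against WT (SE 0.45, adjusted p = 0.51) and -0.69 in KO against HET (SE 0.47, adjusted p = 0.67). Without WT 12, HET 6 and HET 7 the 3 differences were 0.40, 0.05 and 0.35, so that the last changed sign. Without HET 5 the HET minus WT difference was 1.28, and without KO 4 the KO minus WT difference was -0.14. HET 6 was high in H2afx and lowest of all arrays in the meiotic genes, whereas HET 7 and WT 12 were high in both, and the part of meiotic RNA in these differences was not tested.

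Brca2, which acts in repair by homologous recombination, also followed the arrays that stood apart. Its brighter probe read 8.91, 8.82, 8.88 and 8.86 in KO, 8.84, 8.01 and 9.18 in HET, and 8.86, 8.94, 8.72, 8.72 and 9.27 in WT. The KO arrays were tightly grouped, HET 6 was the lowest of the 12, and WT 12 and HET 7 were the highest. The second probe had 8.06 for HET 6, 8.86 for HET 7 and 8.76 for WT 12, and moved with the first (r = 0.87, n = 12 arrays). In KO against WT the differences were -0.03 (SE 0.19, 95% CI -0.45 to 0.38) and -0.05 (SE 0.15), both at limma adjusted p = 1. In HET against WT the brighter probe differed by -0.23 (SE 0.21, adjusted p = 0.66), which became 0.11 without HET 6, -0.48 without HET 7 and 0.03 without WT 12, HET 6 and HET 7. The KO minus WT differences became 0.06 and 0.005 without those 3 arrays.

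In these 3 arrays the meiotic genes and several members thus moved within groups. The brightest Atm probe was 10.48 for HET 7, 10.19 for HET 6 and 10.51 for WT 12, the last being the highest of the 12 arrays. Since the 3 arrays are separate from the rest in the meiotic list, no correlation with that list over all 12 is given. Over the other 9 arrays, 14 relations between a member probe and the meiotic list were computed. The largest r was that of the brightest Atm probe (Pearson r = 0.84, exact permutation p = 0.025, adjusted p = 0.14; Spearman rho = 0.55, exact permutation p = 0.13, adjusted p = 0.28; two-sided). It did not pass after adjustment, and r was 0.14 without WT 8 and WT 11, so it rested on those arrays. The other 2 Atm probes had r = 0.43 and -0.58 (exact permutation, adjusted p = 0.35 and 0.14). The brightest Clspn probe had r = 0.66 (exact permutation p = 0.038, adjusted p = 0.14) and rho = 0.57 (exact permutation p = 0.12, adjusted p = 0.28), with r = 0.10 without the same arrays. The brighter Brca2 probe had r = 0.22 and rho = 0.13 (exact permutation, adjusted p = 0.64 and 0.80), and the second r = 0.70 and rho = 0.57 (adjusted p = 0.14 and 0.28), with r = 0.18 without WT 8 and WT 11. H2afx had r = 0.17 and rho = 0.53 (adjusted p = 0.62 and 0.28), and Chek1 r = -0.23 and rho = -0.10 (adjusted p = 0.64 and 0.81). No relation passed after adjustment. The number sets hold fewer than 6 of these arrays each, so no value within them is given. Chek1 read 5.45 for HET 7, 5.66 for HET 6 and 5.32 for WT 12, inside the range of the other 9 arrays (5.11 to 5.96).

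**Figure D4:**
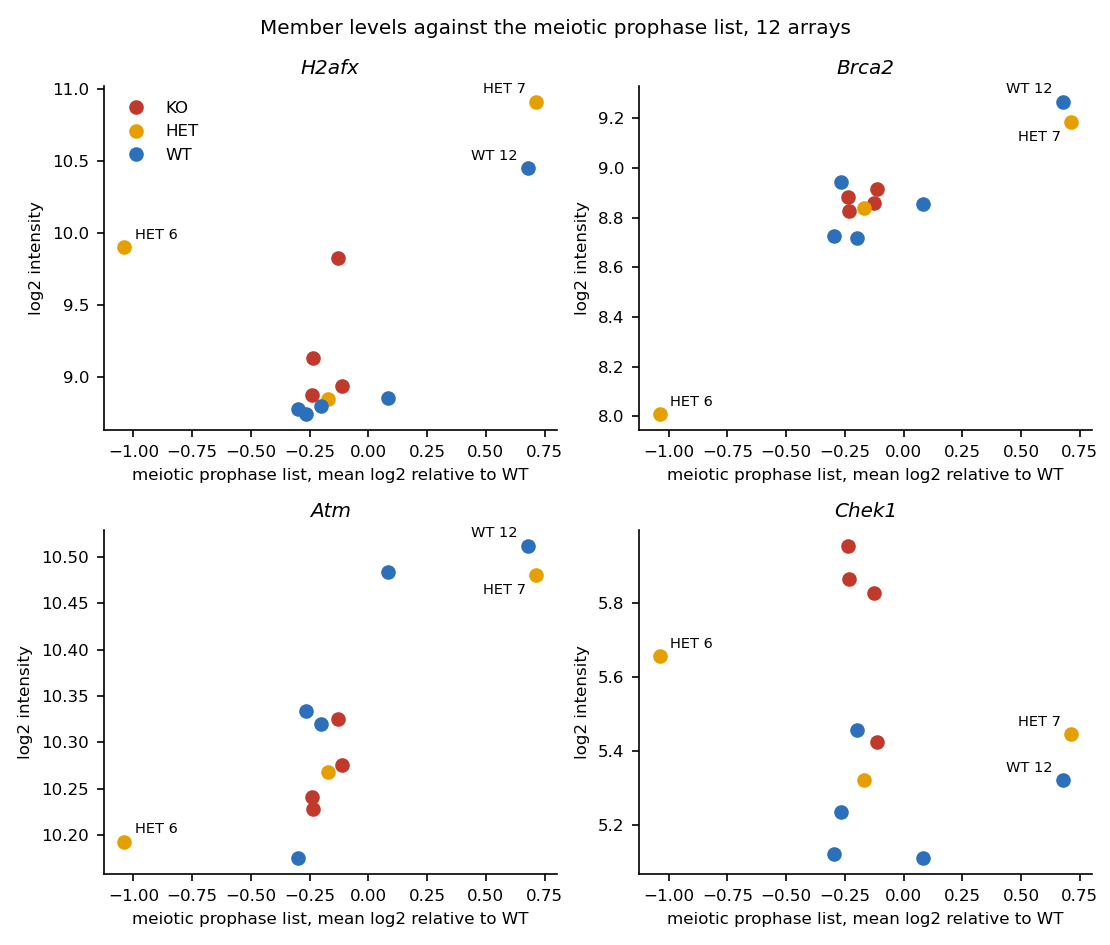
Log2 normalized intensity of H2afx, Brca2, Atm and Chek1 (brightest probe) against the mean of the meiotic prophase list relative to WT, 1 point per array, coloured by group. HET 6 lies far left and HET 7 and WT 12 far right; Brca2 is lowest in HET 6 at 8.01, and H2afx is high in all 3.

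The genes whose levels most resembled each member were taken over all 12 arrays, the 3 that stood apart included, among 9248 genes detected on every array, by Pearson r as a description. For Brca2 these were Dmrtc2 (0.98), Med6 (0.98) and Spata24 (0.97). For Atm they were Fignl1 (0.93), Ap1m1 (0.91) and Brip1 (0.91), for Clspn Rae1 (0.93), Scube3 (0.91) and Tbc1d1 (0.90), for H2afx Zfp202 (0.95), Emb (0.94) and Dnajb1 (0.94), and for Chek2 Homer2 (0.90), Slc4a3 (0.90) and Afg3l2 (0.89). Chek1 and Atr were not detected on every array and have no such list. The r values given are the largest among 9248 genes for each member, so they are high by selection. How far the 3 arrays that stood apart drive them was not tested.

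The other genes of the pathway were read from 6 lists with 110 genes, of which 83 were measured by their brightest detected probe. In KO against WT 0 of 83 passed (limma), 1 was higher and 0 were lower at an unadjusted p under 0.05, where 0 percent, 1.53 percent and 0.876 percent of all 11076 genes did. Of the 83, 60 (72.3 percent) had a difference above 0, with a median of 0.045, beside 50.5 percent and a median of 0.002 over all genes. The lists were chosen with earlier results of these data known, so these shares are a description. In KO against WT 0 genes of the marker lists passed, and genes above 0 numbered 9 of 9 for peritubular myoid cells (median 0.14), 0 of 6 for Leydig cells (median -0.23), 2 of 17 for meiotic prophase (median -0.10) and 2 of 12 for macrophages (median -0.12). They numbered 8 of 17 for Sertoli cells (median -0.001), 7 of 18 for spermatogonia (median -0.05) and 2 of 9 for endothelial cells (median -0.03). For erythroid genes they numbered 3 of 3 (median 0.20), and for epididymis and fat 1 of 2 (median 0.09). A list of proliferation genes had 7 of 12 above 0 (median 0.04) and 0 passed. The peritubular myoid mean relative to WT lay between 0.08 and 0.26 in KO arrays, between -0.14 and 0.12 in HET arrays and between -0.10 and 0.09 in WT arrays. The part of these lists in the pathway values was not tested. All KO arrays lay above all WT arrays in 5 of the 83 genes (1.16 percent of all genes) and below them in 0 (0.776 percent). In HET against WT 0 passed, 4 were higher and 2 lower (3.41 and 5.78 percent of all genes), and 52 lay above 0 (62.7 percent, beside 47.7 percent). All HET arrays lay above all WT arrays in 1 gene and below them in 1 (1.02 and 1.66 percent of all genes). In KO against HET 0 passed, 2 were higher and 3 lower (4.35 and 2.31 percent), and 39 lay above 0 (47 percent, beside 53 percent). KO and HET arrays were apart in 5 genes upward and in 2 downward (2.93 and 2.31 percent).

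The list nearest to Chek1, the ATR and replication checkpoint, had 14 of 16 measured genes above 0 in KO against WT, with a median of 0.07 and 0 passed. Its mean relative to WT lay between 0.06 and 0.10 in KO arrays, between -0.02 and 0.09 in HET arrays and between -0.07 and 0.08 in WT arrays, so the groups overlapped. With WT 12, HET 6 and HET 7 left out, the median of this list in KO against WT was 0.09. WT 12 had the highest WT mean in this list (0.08), so leaving it out raises the mean difference of the list. No count above 0 is given for that setting, because the share over all genes there is not given. In HET against WT 8 of 16 lay above 0 (median 0.02), and in KO against HET 10 of 16 (median 0.03). The KO and WT arrays are those by which Chek1 was chosen. Topbp1, the activator of ATR, read 6.84 ± 0.22 in KO, 6.37 ± 0.53 in HET and 6.67 ± 0.24 in WT, a KO minus WT difference of 0.17 (SE 0.19, limma adjusted p = 1), and of 0.09 without WT 9 and 0.26 without KO 1. Rad17, which loads the clamp of Rad9a, Rad1 and Hus1, read 9.57 ± 0.09 in KO, 9.88 ± 0.32 in HET and 9.52 ± 0.09 in WT. Its HET minus WT difference of 0.36 (SE 0.13, adjusted p = 0.47) was 0.01 without WT 12, HET 6 and HET 7, while it was 0.54 and passed without HET 5 (adjusted p = 0.046). Atrip, the partner of Atr, Rad9a, Hus1, and the fork protection pair Timeless and Tipin differed by 0.03 to 0.12 in KO against WT.

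Among genes that CHK1 and WEE1 act on or with, Cdc25a, the phosphatase that CHK1 marks for destruction, read 8.80 ± 0.12 in KO, 8.96 ± 0.31 in HET and 8.64 ± 0.21 in WT. The KO minus WT difference was 0.16 (SE 0.14, limma adjusted p = 1), and 0.10 without WT 12, HET 6 and HET 7. Cdc25b differed by 0.13, Cdc25c by 0.03, the WEE1 relative Pkmyt1 by 0.03 and their target Cdk1 by 0.09, none of which passed. Over the mitotic entry list 9 of 11 genes lay above 0 in KO against WT, with a median of 0.08 and 0 passed, and 6 of 11 did without WT 10. In HET against WT 10 of 11 lay above 0 (median 0.11), and in KO against HET 4 of 11 (median -0.10).

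For break sensing, Mre11a and Rad50, which bind broken ends, differed by 0.04 and 0.11 in KO against WT, and Trp53bp1, which favours end joining, by 0.02. Their list had 9 of 14 genes above 0 with a median of 0.01. For homologous recombination the count was 14 of 20 with a median of 0.05, and Bard1, the partner of BRCA1, and Palb2, which joins BRCA1 to BRCA2, differed by 0.10 (SE 0.11) and 0.12 (SE 0.10). Brip1, a helicase that binds BRCA1, differed by -0.06, and by 0.07 without WT 12, HET 6 and HET 7. The Fanconi anaemia list had 7 of 12 above 0 and the end joining list 7 of 10, and 0 genes of any of these lists passed. In HET against WT the counts were 7 of 14 for break sensing and 12 of 20 for homologous recombination. They were 9 of 12 for Fanconi anaemia (median 0.03) and 7 of 10 for end joining (median 0.09). Nbn, Mdc1, Dmc1 and Hormad1 were below the detection filter, and no probe was listed for Rbbp8, Ccnb1 or Mki67 in the annotation used.

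**Figure D5:**
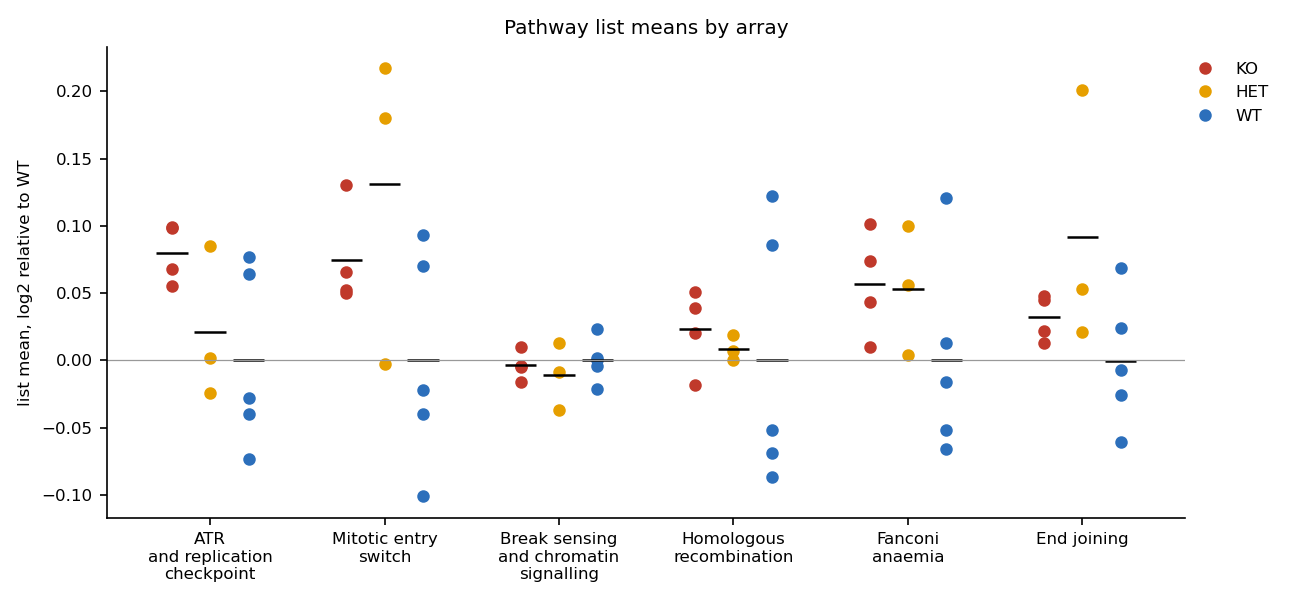
Mean log2 level of each of the 6 pathway lists relative to the WT mean, 1 point per array, with a horizontal line at the group mean. KO points of the ATR and replication checkpoint list lie between 0.06 and 0.10 and overlap the WT points, which reach 0.08.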

How the data were processed

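Total RNA of 12 testis samples was hybridised to 1-colour BeadChips after amplification and biotin labelling, per the labels' protocols. The deposited table of unnormalized values holds, for each probe and array, a linear mean bead intensity with its detection p-value, per the file headers. The authors also deposited processed intensity values, linear too, which differed from a quantile normalization of these by at most 4.87e-08 percent and served as an alternative. No source used here names the scanner software.

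With R 4.3.3 and limma 3.58.1, intensities were background-corrected by normexp from the detection p-values (offset 16), quantile normalized and taken to log2 (neqc). The 20170 probes with a detection p under 0.05 on 3 or more arrays entered 1 fit (lmFit, eBayes) over 12 arrays with 3 group means, and p-values were adjusted by Benjamini-Hochberg over all of them. Lists used the brightest detected probe of a gene (11076 genes). Members and lists were chosen with earlier results of these data known. Named genes were the 9 members, fixed pathway partners with Rb1 and Ldhc, and the 3 genes most like each member. Etaa1, Rpa1, Rpa3, Foxm1, Parp1, Rnf168 and Uimc1 were named after their values were seen. Promoters came from RefSeq (GRCm38.p6), and protein sequences were not used here. The number of arrays limits the precision. Relations used scipy 1.17.1 and plots matplotlib 3.10.9. Alternatives were background correction, normalization, filter, 1 probe a gene, prior, array weights, samples in the fit, a block for the number sets and each array left out.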

Additional observations from a re-analysis of the deposited data

Results flagged for a closer look

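Of 28 groups of 4 or 5 arrays examined, 3 held an array far from its fellows by Dixon's ratio (the gap to the nearest array over the range), where chance gives about 1 in 20. H2afx in WT had a ratio of 0.933, with WT 12 at 10.45 and the other 4 WT arrays between 8.74 and 8.86. The third Atm probe in KO had a ratio of 0.901, with KO 2 at 7.95 and the others between 7.66 and 7.69. The second Chek2 probe in WT had a ratio of 0.758, with WT 8 at 5.38 and the others between 5.80 and 5.94.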

How the results depend on the processing

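The 41 tested differences of the 14 member probes were recomputed under 24 alternatives, giving 958 values. None of these passed the threshold, 90 had the other sign, and 10 differences kept their sign throughout. By construction, the filters, 1 probe a gene, the prior and fits of only the groups compared leave a difference and its sign unchanged. So does leaving out an array of the group not compared. The authors' values repeat the setting without background correction. The 958 values are thus not 958 separate checks. The Chek1 KO minus WT difference, which has no test, ranged from 0.30 with an offset of 50 to 0.64 without KO 1, 0.32 being the value both without background correction and in the authors' values. Chek1 and Atr failed the stricter filter. The number of probes past the threshold in KO against WT was 0, and 1 without WT 12, HET 6 and HET 7. Leaving out 1 array gave 0 in KO against WT, 0 to 167 in HET against WT and 0 to 55 in KO against HET, both highest values being without HET 5 and holding no member. No paired analysis was possible because the groups share no replicate number. The dim signals of Chek1 and Atr limit their precision.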

Other observations

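Outside the members, 5 of the 83 pathway genes had all KO arrays above all WT arrays (1.16 percent of all genes did), and none of them passed the threshold (limma, adjusted p = 1). Their choice followed their values. Foxm1, a transcription factor of mitotic genes, averaged 7.67 ± 0.06 in KO, 7.82 ± 0.20 in HET and 7.43 ± 0.13 in WT, a KO minus WT difference of 0.24 (SE 0.10). Its HET minus WT difference was 0.39 (SE 0.11, adjusted p = 0.47), and 0.22 without WT 12, HET 6 and HET 7. Rpa1 and Rpa3, subunits of the protein that coats single-stranded DNA, averaged 11.78 ± 0.05 and 10.74 ± 0.04 in KO, 11.75 ± 0.13 and 10.30 ± 0.51 in HET, and 11.65 ± 0.05 and 10.57 ± 0.06 in WT. Etaa1, which activates ATR beside Topbp1, averaged 9.61 ± 0.03 in KO, 9.58 ± 0.40 in HET and 9.43 ± 0.11 in WT. Parp1, the sensor of strand breaks, averaged 12.20 ± 0.10 in KO, 12.24 ± 0.17 in HET and 12.06 ± 0.08 in WT.

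The break signalling genes Rnf168 and Uimc1 had HET means away from KO and WT, and neither passed; they too were picked after their values were seen. Rnf168, a ubiquitin ligase that acts after H2AX phosphorylation, averaged 7.04 ± 0.13 in KO, 6.55 ± 0.31 in HET and 6.97 ± 0.10 in WT, with all HET arrays below all others (KO minus HET 0.49, SE 0.14, limma adjusted p = 0.62; HET minus WT -0.41, SE 0.13, adjusted p = 0.47). Without WT 12, HET 6 and HET 7 these were 0.31 and -0.22. Uimc1, which binds the ubiquitin chains made there, averaged 7.18 ± 0.17 in KO, 7.70 ± 0.43 in HET and 7.35 ± 0.17 in WT. With the 3 arrays left out its KO minus HET difference of -0.53 was -0.06, and its HET minus WT difference of 0.36 was -0.15.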
